A study of Mus musculus with 29 samples.

Results

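Large subunit ribosomal proteins are the proteins of the large subunit of the cytosolic ribosome, the part that joins amino acids into a chain. Their genes were taken by symbol: every gene of the deposited count table named Rpl with a number and at most a trailing a, plus Rplp0, Rplp1 and Rplp2, and without Rpl22. That rule found 45 of 23366 genes, and it used no measured value. RNA was measured in hematopoietic stem and progenitor cells from the bone marrow of C57BL/6 mice of 8 to 12 weeks, sorted as lineage-negative, cKit-positive, Sca1-positive cells and split by the surface receptor CD150. The 4 genotypes were Mysm1-/-Puma-/-, Mysm1-/-Puma+/-, Puma-/- (Mysm1+/+Puma-/- in the labels) and wild type. Mysm1 encodes a histone H2A deubiquitinase needed for blood stem cells, and Puma, whose gene symbol is Bbc3, encodes a protein that starts apoptosis downstream of p53. The Mysm1-/-Puma+/- mice stand in for Mysm1-/- mice and carry 1 disrupted Puma allele, per the labels, so no group lacks Mysm1 with Puma intact. Both sexes were pooled, per the labels.

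In CD150-positive cells there were 7 Mysm1-/-Puma-/- libraries (P1 to P3 and B1, B3, B5 and B6), 4 Mysm1-/-Puma+/- libraries (A1 to A4), 2 Puma-/- libraries (C1-4 and C2-5) and 4 wild-type libraries (D1, D2, D3-4 and W1). In CD150-negative cells each genotype had 3 libraries: B1, B3 and B5, then A1 to A3, then C2, C3 and C5, then D2, D3 and D4, in the same order of genotypes. The labels do not say that libraries came from separate animals, so p-values measure only the spread between libraries, which may be technical. Depth was 12304713 to 35034318 counts a library in CD150-positive and 28066870 to 54339749 in CD150-negative cells. Slamf1, which encodes CD150, ran from 10.97 to 30.4 CPM (read counts scaled to a common library size) in CD150-positive and from 0.218 to 2.30 CPM in CD150-negative libraries, and Kit from 449 to 812 CPM in all. Mysm1 ran from 66.4 to 90.1 CPM in CD150-positive Mysm1-/-Puma-/-, 96.0 to 109 in Mysm1-/-Puma+/-, 130.5 to 132 in Puma-/- and 111 to 126 in wild-type libraries, and from 67.1 to 80.9, 76.2 to 122, 85.3 to 95.3 and 98.5 to 108 CPM in the same genotypes of CD150-negative cells. Bbc3 ran from 15.9 to 25.3, 17.2 to 23.9, 2.29 to 2.70 and 2.85 to 4.64 CPM in CD150-positive and from 22.0 to 29.8, 20.7 to 44.99, 5.32 to 6.00 and 4.23 to 7.78 CPM in CD150-negative cells, in that order of genotypes. Counts over a whole gene do not show which part was deleted, so these values check neither genotype.

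A ribosome holds 1 copy of most large subunit proteins and more of the acidic stalk proteins, and mammalian genes for them are transcribed at high, matched rates and translated together under control of the growth regulator mTOR. In blood, loss of 1 copy of some of these genes causes Diamond-Blackfan anaemia, in which red cell production fails. Free RPL5 and RPL11, bound to 5S ribosomal RNA, hold the p53 inhibitor MDM2, which ties ribosome assembly to p53. Mammalian genomes also carry many processed pseudogenes of these genes, which are spliced copies of the mRNA pasted elsewhere in the genome, and a short read can match a gene and its copies alike.

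How far such copies reach can be read from the sequences. The stretches shown are 50-base parts of 3 coding sequences, as long as 1 read, each found base for base at other places of the mouse genome (NCBIM37, the build also called mm9). They are shown because these 3 genes hold very few counts, and each stretch was chosen for its many matches. In each the whole stretch is copied, so no letter is set in capitals.
Rpl26: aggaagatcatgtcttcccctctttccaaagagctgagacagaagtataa
Rpl30: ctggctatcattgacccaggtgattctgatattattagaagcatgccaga
Rpl34: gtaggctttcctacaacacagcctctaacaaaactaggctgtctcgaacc
The Rpl26 stretch, coding bases 79 to 128, has 6 other matches, 1 of them at chr12:58733875-58733924 on the minus strand. The Rpl30 stretch, bases 280 to 329, has 15, 1 of them at chr10:68788304-68788353 on the plus strand. The Rpl34 stretch, bases 26 to 75, has 9, 1 of them at chr10:127627610-127627659 on the plus strand.

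Rpl26 had 4 counts over all 29 libraries and was not tested, Rpl30 had 2330 (30 to 152 a library) and Rpl34 had 2115 (19 to 170). The other 42 members had at least 96130 counts each, the lowest being Rpl38. Few counts did not go with more copying: exact copies covered 87.4% of the 50-base coding stretches of Rpl26, 83.3% of Rpl30 and 71.5% of Rpl34, against 100% of Rpl36a, Rpl21 and Rpl31, which were well counted. How the counting treated reads with several matches is not given in the sources used here, and its part in these counts was not tested.

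Of the 44 members with an annotated coding sequence (Rpl41 has none in the annotation used), all had at least 1 copied stretch. In 26 of them over 90% of stretches were copied, and in 41 over 50%. A copy of at least 95% identity over at least 90% of the coding length was found for 43 members, 374 copies in all, from 55 for Rpl21 to 0 for Rpl8, with 28 for Rpl29. Rpl8 was also the least copied by short stretches, at 8.83%, followed by Rpl4 at 20.2% and Rpl13a at 40.5%. The annotation names 117 pseudogenes of members, of which 2 (Rplp2-ps1 and Rpl34-ps1) have counts of their own. Every member's value below may thus hold reads of copies, or miss reads lost to them, and is uncertain to that extent. Besides, 13 members overlap another annotated gene that is no small nucleolar RNA gene, Rpl31 with Tbc1d8 and Rpl5 with Fam69a among them. The library kit keeps strand, but the strand setting of the counting is not given in the sources used here.

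**Figure D1:**
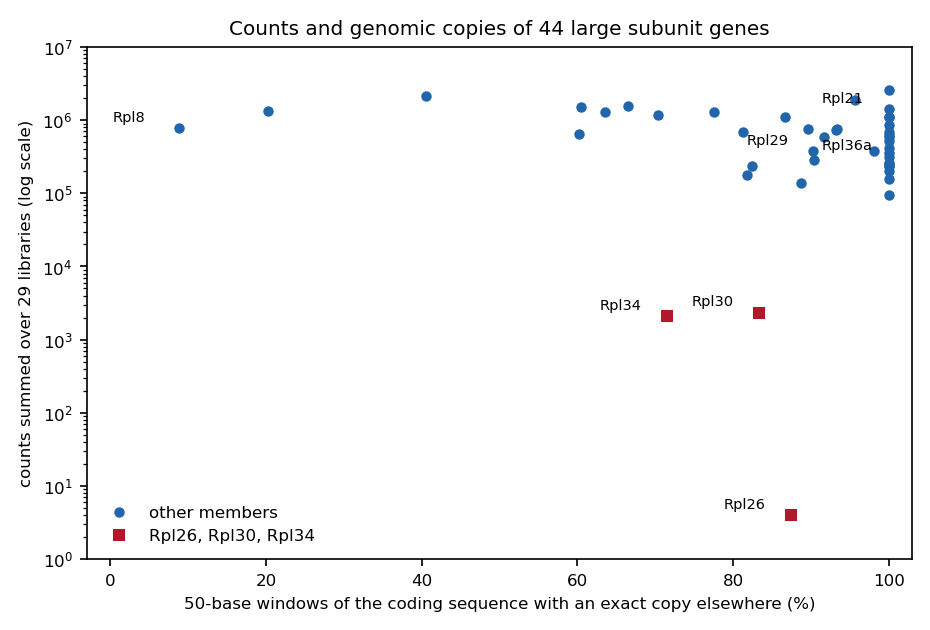
Each point is 1 member with an annotated coding sequence: percent of its 50-base coding stretches found base for base elsewhere in the genome (x axis) against its counts summed over the 29 libraries (y axis, log scale). Rpl26, Rpl30 and Rpl34 lie far below the rest at 87.4%, 83.3% and 71.5%, while members at 100% such as Rpl36a were well counted.

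Rpl36a, whose protein lines the exit site for used tRNA, carries much of what follows, and it has an expressed relative, Rpl36al, that the rule leaves out. The pair is shown to let the reader see how far short reads can tell them apart. Coding bases 115 to 174 are given, a part chosen because it holds the most differences, with the 12 bases at which they differ in capitals.
Rpl36a: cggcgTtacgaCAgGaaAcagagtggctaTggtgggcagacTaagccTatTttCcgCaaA
Rpl36al: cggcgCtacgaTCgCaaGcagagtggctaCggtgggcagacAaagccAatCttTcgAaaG
Over the 321 coding bases 282 are identical (87.85%), and the longest identical run is 24 bases. No 50-base read from the coding part thus fits both without a mismatch. How the alignment placed such reads was not tested. The 7 near-full copies of Rpl36a elsewhere in the genome remain.

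In CPM per kilobase of the counted gene length, the acidic stalk proteins Rplp2 and Rplp1, which draw elongation factors to the ribosome, and Rpl13a held ranks 1, 2 and 3 in each of the 8 groups. The means of their 8 group means were 4423, 3424 and 2560 CPM per kilobase. Among the 42 well-counted members the lowest were Rpl15 at 165, Rpl38 at 130 and Rpl31 at 100, so levels per kilobase differed far between members. Lengths take in every annotated exon, long alternative ends too, which lowers some of these values. The within-group SD of log2 CPM had a median of 0.185 over members, and was 0.140 in Rpl29, 0.405 in Rpl39 and 0.407 in Rpl38. The other variable members were Rpl37a at 0.342 and Rpl41 at 0.340, which like Rpl38 and Rpl39 encode short proteins.

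The share of all counts that fell on the 45 genes had lower means in both Mysm1-deficient genotypes of CD150-positive cells: 3.59 ± 0.34% in Mysm1-/-Puma-/- (SD, n = 7) and 3.88 ± 0.24% in Mysm1-/-Puma+/- (n = 4), against 4.50 ± 0.39% in Puma-/- (n = 2) and 4.40 ± 0.41% in wild type (n = 4). In CD150-negative cells the shares were 3.23 ± 0.34% in Mysm1-/-Puma-/-, 3.99 ± 0.13% in Mysm1-/-Puma+/-, 4.27 ± 0.24% in Puma-/- and 4.19 ± 0.43% in wild type (n = 3 each). Only the Mysm1-/-Puma-/- libraries of CD150-negative cells, at 2.90% to 3.57%, lay wholly below every other group of their population. The 32 small subunit genes showed means of 2.45%, 3.04%, 3.23% and 3.18% in CD150-negative cells, in the same order of genotypes. Shares and CPM are relative to the rest of the RNA in a library, and in such bulk samples fewer cells of a type and less RNA per cell cannot be told apart.

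**Figure D2:**
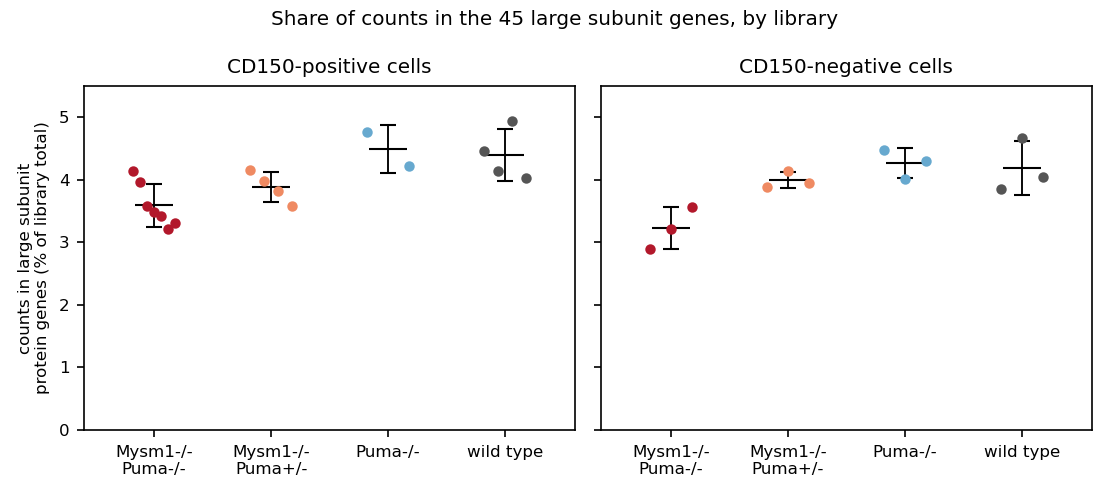
Each point is 1 library: the percent of its counts that fell on the 45 large subunit genes, by genotype within each population, with the group mean and SD. CD150-negative Mysm1-/-Puma-/- libraries, at 2.90% to 3.57%, lie below all other CD150-negative libraries, while CD150-positive Mysm1-/-Puma-/- libraries reach 4.15% and overlap the wild type at 4.04% to 4.95%.

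The largest set of changes was in CD150-negative cells lacking both Mysm1 and Puma. Against wild type, 26 of the 44 tested members fell and 0 rose, calling a change where the Benjamini-Hochberg adjusted p of edgeR's quasi-likelihood test over all genes was under 0.05. Of all 21168 genes tested, 1.61% were called lower. The members' median log2 fold change was -0.71, against 0.02 over all genes, and all 44 values were negative. In 33 members every Mysm1-/-Puma-/- library lay below every wild-type library, as in 9.36% of all genes. Without wild-type library D3, which was the highest of its group in each member whose wild-type levels are given for that population here, 15 members were called and the median was -0.53.

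Rpl36a, on the plus strand of chrX:131120193-131122601 (NCBIM37), fell most. It had 183, 218 and 239 CPM in Mysm1-/-Puma-/- libraries, 316, 304 and 286 CPM in Mysm1-/-Puma+/-, 511, 482 and 465 CPM in Puma-/- and 450, 612 and 524 CPM in wild type. The Mysm1-/-Puma-/- libraries were lowest, the Mysm1-/-Puma+/- libraries came between, and neither overlapped the others. The log2 fold change of Mysm1-/-Puma-/- against wild type was -1.36 (SE 0.16, adjusted p = 0.000122, edgeR).

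Rpl37a, at chr1:72757834-72760383 on the plus strand, encodes a small zinc-binding protein of the subunit. It had 110.0, 116 and 127 CPM in Mysm1-/-Puma-/- libraries, 174, 174 and 159 CPM in Mysm1-/-Puma+/-, 264, 239 and 244 CPM in Puma-/- and 247, 312 and 272 CPM in wild type. The genotypes kept the same order with no overlap between the Mysm1-deficient groups or with the others, and the fold change of Mysm1-/-Puma-/- against wild type was -1.29 on the log2 scale (SE 0.14, adjusted p = 5.77e-05, edgeR).

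Rpl29, at chr9:106331785-106333899 on the plus strand, encodes a protein whose loss in mice gives small animals. Its levels were 235, 289 and 320 CPM in Mysm1-/-Puma-/- libraries, 303, 391 and 403 CPM in Mysm1-/-Puma+/-, 565, 608 and 561 CPM in Puma-/- and 583, 646 and 593 CPM in wild type. Here the 2 Mysm1-deficient groups overlapped each other, and both lay below the other 2 groups. The log2 fold change of Mysm1-/-Puma-/- against wild type was -1.16 (SE 0.16, adjusted p = 0.000568, edgeR).

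Rpl8, at chr15:76734501-76736748 on the plus strand, is the member with the fewest copies, and its protein reaches towards the catalytic centre. It had 500.4, 586 and 679 CPM in Mysm1-/-Puma-/- libraries, 909, 1001 and 800.3 CPM in Mysm1-/-Puma+/-, 1321, 1100.5 and 1081 CPM in Puma-/- and 1063, 1273 and 1086 CPM in wild type. Its Mysm1-/-Puma-/- libraries lay below all others, with a log2 fold change of -1.01 against wild type (SE 0.17, adjusted p = 0.00208, edgeR).

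Rpl31, at chr1:39424696-39428753 on the plus strand, encodes a protein beside the opening where the new chain leaves, and had 191, 204 and 187 CPM in Mysm1-/-Puma-/- libraries against 327, 376 and 348 CPM in wild type. Its log2 fold change was -0.91 (SE 0.12, adjusted p = 0.000507, edgeR). With Rpl15, Rpl36, Rpl38, Rpl35a and Rpl13, whose values ran from -0.93 to -0.81, these were the 10 members with the smallest p. In the mouse, Rpl38 is known for its part in patterning the skeleton. The remaining 16 called members lay between -0.86 and -0.62.

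**Figure D3:**
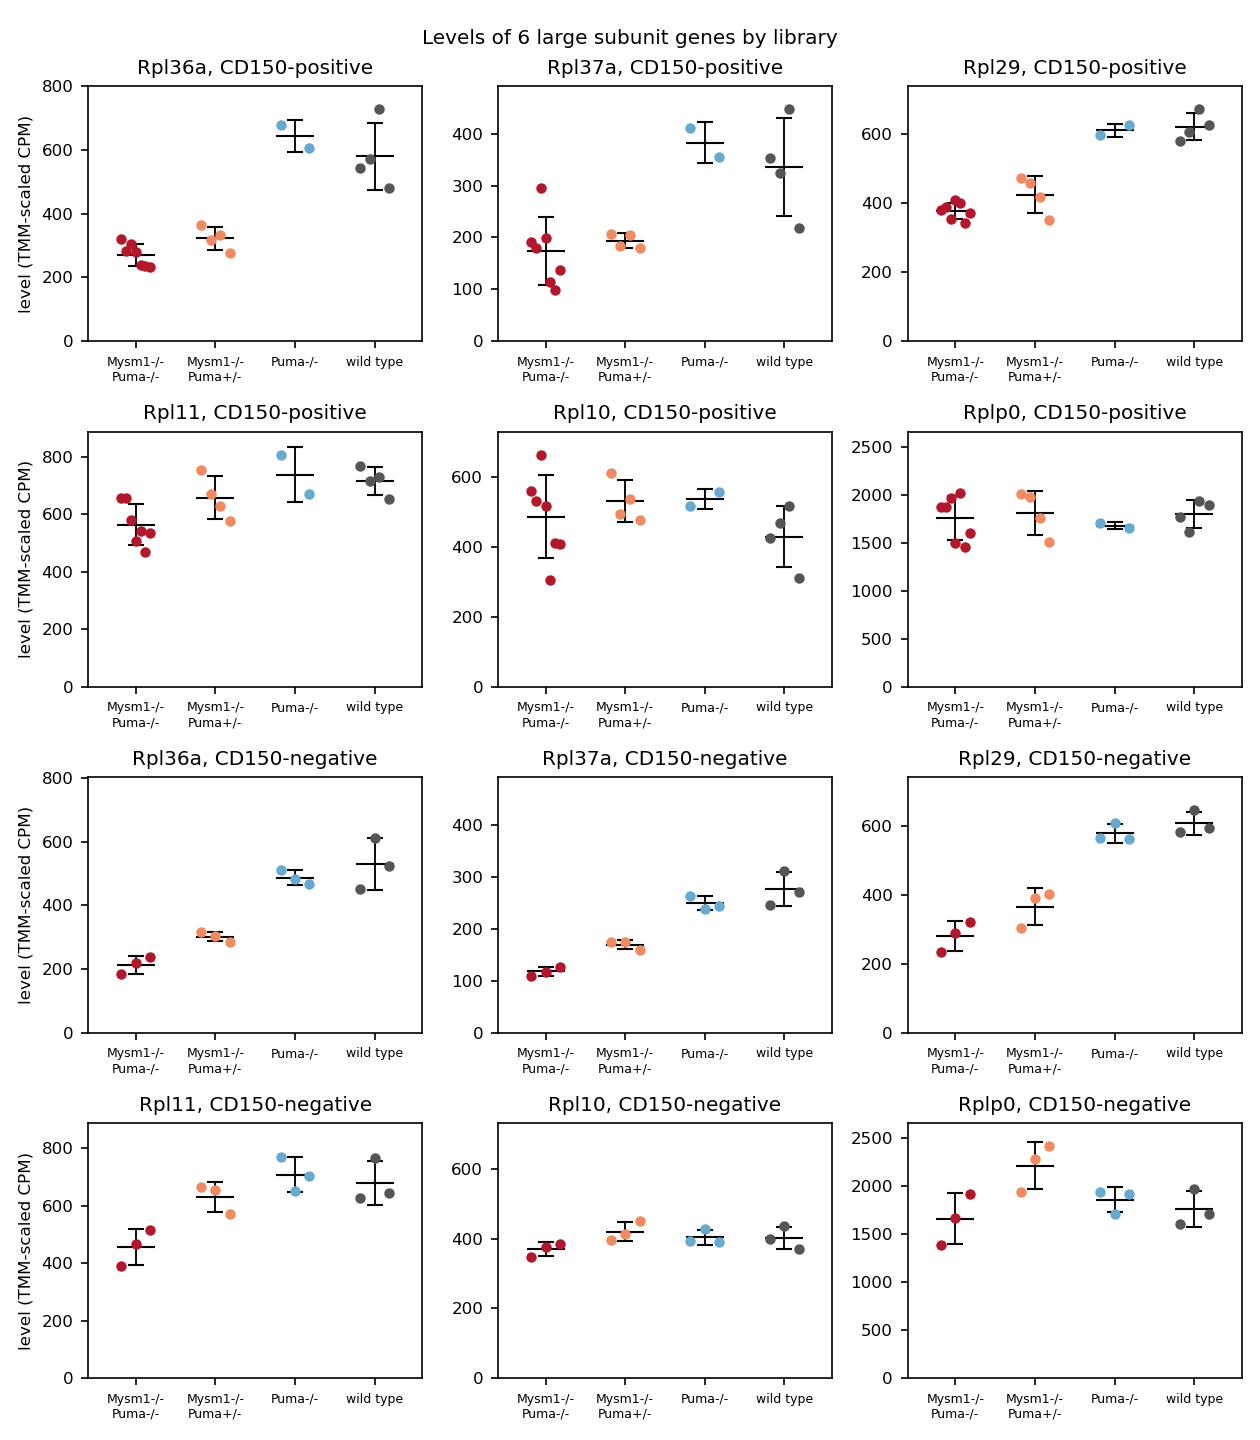
Levels of 6 members in every library, in TMM-scaled CPM, by genotype within each population, with group means. Rpl36a, Rpl37a and Rpl29 are lower in Mysm1-/-Puma-/- and Mysm1-/-Puma+/- libraries than in Puma-/- and wild-type libraries of CD150-negative cells, while Rplp0 and Rpl10 overlap between genotypes.

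The 18 members that did not pass the test in that comparison included the whole stalk. The stalk is built on Rplp0 and Rpl12 and carries Rplp1 and Rplp2. Rplp0 (chr5:116009476-116013736, plus strand) had 1387, 1670 and 1917 CPM in Mysm1-/-Puma-/- libraries against 1604, 1965 and 1715 CPM in wild type, and the groups overlapped. Its log2 fold change was -0.14 (adjusted p = 0.888, edgeR). Rplp1 had -0.10 (adjusted p = 0.939), Rplp2 -0.20 (adjusted p = 0.713) and Rpl12 -0.48 (adjusted p = 0.143). In the main fits 0 of these 4 were called by edgeR in any comparison between genotypes. In Rpl12 the groups did not overlap, with 719, 845 and 992 CPM in Mysm1-/-Puma-/- libraries against 1088, 1248 and 1116 CPM in wild type. Nearer 0, like Rplp0, Rplp1 and Rplp2, were Rpl10, -0.18 (adjusted p = 0.692), whose protein is among the last to join the subunit, and Rpl13a, also at -0.18. Rpl10 and Rpl36a share the X chromosome with Rpl39, a tunnel protein, whose value was -0.77 (adjusted p = 0.014). A p that misses the threshold does not show that a gene was equal between groups.

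The pair that binds 5S RNA and MDM2 had values of the same sign, of which 1 was called. Rpl11 (chr4:135584180-135609343, minus strand) had 390, 466 and 515 CPM in Mysm1-/-Puma-/- libraries against 627, 767 and 644 CPM in wild type, and fell by 0.62 on the log2 scale (SE 0.16, adjusted p = 0.0441, edgeR). Rpl5 (chr5:108329521-108338024, plus strand) had 2052, 2322 and 2716 CPM in Mysm1-/-Puma-/- libraries against 3088, 3964 and 3245 CPM in wild type, without overlap, and a log2 fold change of -0.59 (SE 0.17) that missed the threshold at an adjusted p of 0.0803. It passed with DESeq2 (adjusted p = 0.00347), with the receptor covariate in edgeR (0.0322) and without B5 (0.0391). Rpl11 is thus close to the threshold from the other side, and its call ended without B1, B3, D2, D3 or D4 (adjusted p from 0.0646 to 0.279). Mdm2, the gene of their partner and itself a target of p53, rose by 0.61 there (adjusted p = 0.0219) and by 0.79 in Mysm1-/-Puma+/- against wild type (adjusted p = 0.00569). Trp53, Heatr3, Rpf2 and Rrs1, the rest of that list, were not called in either comparison.

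Of the 9 members mutated in human Diamond-Blackfan anaemia, 8 could be tested, and 7 fell in CD150-negative Mysm1-/-Puma-/- cells against wild type: Rpl11, Rpl15, Rpl18, Rpl27, Rpl31, Rpl35 and Rpl35a. Their median log2 fold change, with Rpl5, was -0.81. Of the 7 tested members at the exit tunnel, 4 fell, namely Rpl17, Rpl31, Rpl35 and Rpl39. Of the 32 small subunit genes 12 fell, with a median of -0.40, and of 53 genes for assembly factors of the large subunit 0 were called, with 7 lower and 0 higher at an unadjusted p under 0.05 and a median of -0.20. The Diamond-Blackfan and tunnel genes that fell are part of the count over all members given above, where most tested members fell. Shares of all genes at the unadjusted threshold are not given. Whether the lists differ from one another was not tested.

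Summed erythroid marker levels were lower in the same libraries than in wild type, though single markers did not all follow. The summed level of 9 erythroid markers was 14.4 to 25.5 CPM in CD150-negative Mysm1-/-Puma-/- libraries and 43.9 to 46.7 CPM in wild type. Car1 made up most of the difference, with 3.72, 3.298 and 13.03 CPM in Mysm1-/-Puma-/- libraries against 26.5, 29.3 and 25.3 CPM in wild type. Alas2 had 7.45, 6.21 and 2.13 CPM in Mysm1-/-Puma-/- libraries against 3.301, 2.27 and 2.84 CPM in wild type. Low sums were not particular to Mysm1-/-Puma-/-: Mysm1-/-Puma+/- libraries had 7.95 to 40.6 CPM, with Car1 at 1.58, 0.293 and 17.6 CPM. Hba-a1, Hba-a2, Hbb-b1 and Hbb-b2 were at 0 in the Mysm1-/-Puma-/- libraries, and all but Hbb-b1 also in the wild type, and 0 of the 5 markers that could be tested were called. Megakaryocyte markers summed to 38.7 to 55.0 CPM in Mysm1-/-Puma-/- and 33.5 to 37.2 CPM in wild-type libraries, and granulocyte and monocyte markers to 600 to 2007 CPM in Mysm1-/-Puma-/- and 972 to 2091 CPM in wild-type libraries. Summed over 1471 odorant and pheromone receptor genes, which have no known role in marrow and serve as a gauge of stray signal, levels were 2923 to 5810 CPM in Mysm1-/-Puma-/- and 1993 to 4296 CPM in wild-type libraries. The part of these differences in the members' fall was not tested, except that with the receptor level as a covariate 29 members were called and the median was -0.65. The share of all genes called with that covariate is not given.

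Set against Puma-/- rather than wild type, CD150-negative Mysm1-/-Puma-/- cells showed 21 members that fell and 0 that rose, beside 0.935% of all genes called lower. The median log2 fold change was -0.67, against 0.03 over all genes, and in 35 members all libraries were lower, as in 8.09% of all genes. Rpl37a had -1.12 (SE 0.14, adjusted p = 0.000368), Rpl36a -1.23 (SE 0.16, adjusted p = 0.000464) and Rpl29 -1.07 (SE 0.16, adjusted p = 0.00165) by edgeR, followed by Rpl13 at -1.03, Rpl31 at -0.80, Rpl8 at -1.03, Rpl24 at -0.77, Rpl36 at -0.80, Rpl18 at -0.82 and Rpl6 at -0.80. Rpl11 fell by 0.67 (adjusted p = 0.0414), a call that ended without B1, B3, C2, C3 or C5 (adjusted p from 0.0649 to 0.245). Without Puma-/- library C5 13 members were called. Summed erythroid markers were 14.4 to 25.5 CPM in Mysm1-/-Puma-/- libraries and 41.2 to 81.5 CPM in Puma-/-. Of the other marker lists, Cd3g, a T cell gene, fell by 2.40 (adjusted p = 0.0247), and Ly6a, which encodes Sca1, rose by 1.16 (adjusted p = 0.0385), both by edgeR. Their lists did not follow as a whole. Summed T and NK markers overlapped, at 16.7 to 25.7 CPM in Mysm1-/-Puma-/- and 19.9 to 29.7 CPM in Puma-/- libraries. Summed stem and progenitor markers did too, at 1702 to 1919 CPM and 1700 to 1921 CPM. Cd3g itself had 0.695 to 1.22 CPM against 2.72 to 7.84 CPM. The part of these markers in the members' fall was not tested. This comparison shares its Mysm1-/-Puma-/- libraries with the one against wild type, so the pair are not independent.

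In CD150-negative cells with 1 intact Puma allele, Mysm1-/-Puma+/- against wild type, 3 members fell and 0 rose, beside 0.231% of all genes called lower. They were Rpl36a at -0.78 (SE 0.15, adjusted p = 0.0166), Rpl37a at -0.68 (SE 0.14, adjusted p = 0.0183) and Rpl29 at -0.70 (SE 0.16, adjusted p = 0.0403), by edgeR. The members' median was -0.20, against -0.05 over all genes, and 20 members had all libraries lower, as in 8.83% of all genes. Stalk genes lay on the other side, with Rplp1 at 0.39 (adjusted p = 0.457) and Rplp0 at 0.36 (adjusted p = 0.509). The count was 0 without library A1, D3 or D4 and 1 without A2.

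Between the Mysm1-deficient genotypes of CD150-negative cells, Mysm1-/-Puma-/- against Mysm1-/-Puma+/-, 3 members fell and 0 rose, beside 1.05% of all genes called lower. These were Rpl37a at -0.60 (SE 0.14, adjusted p = 0.0392), Rpl41 at -0.72 (SE 0.16, adjusted p = 0.0392) and Rpl8 at -0.70 (SE 0.17, adjusted p = 0.0488), by edgeR. All 44 tested members had a negative value, with a median of -0.50 against 0.09 over all genes, and in 36 all Mysm1-/-Puma-/- libraries were lower, as in 9.48% of all genes. Here Rplp0 had a value of -0.49 (adjusted p = 0.129 by edgeR, 0.0211 by DESeq2). Rplp1 also had -0.49 (adjusted p = 0.133 by edgeR), and was called by edgeR with 1 of the libraries left out. The count hung on single libraries and on the tool: it was 0 without A1, A2, B1 or B3, 10 without A3 and 20 without B5, and DESeq2 called 32. The share of 1.05% holds for the main fit only, and shares of all genes called under these other settings are not given.

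In CD150-negative Puma-/- cells against wild type 0 members were called, as were 0% of all genes, by edgeR. At an unadjusted p under 0.05 there were 0 members, and DESeq2 called 0. The median was -0.01. The smallest p-values belonged to Rpl38 at -0.28, Rpl37a at -0.17 and Rpl39 at -0.17 (adjusted p = 1 each). Levels of Rpl36a in the Puma-/- libraries, given above, lay within the wild-type range.

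**Figure D4:**
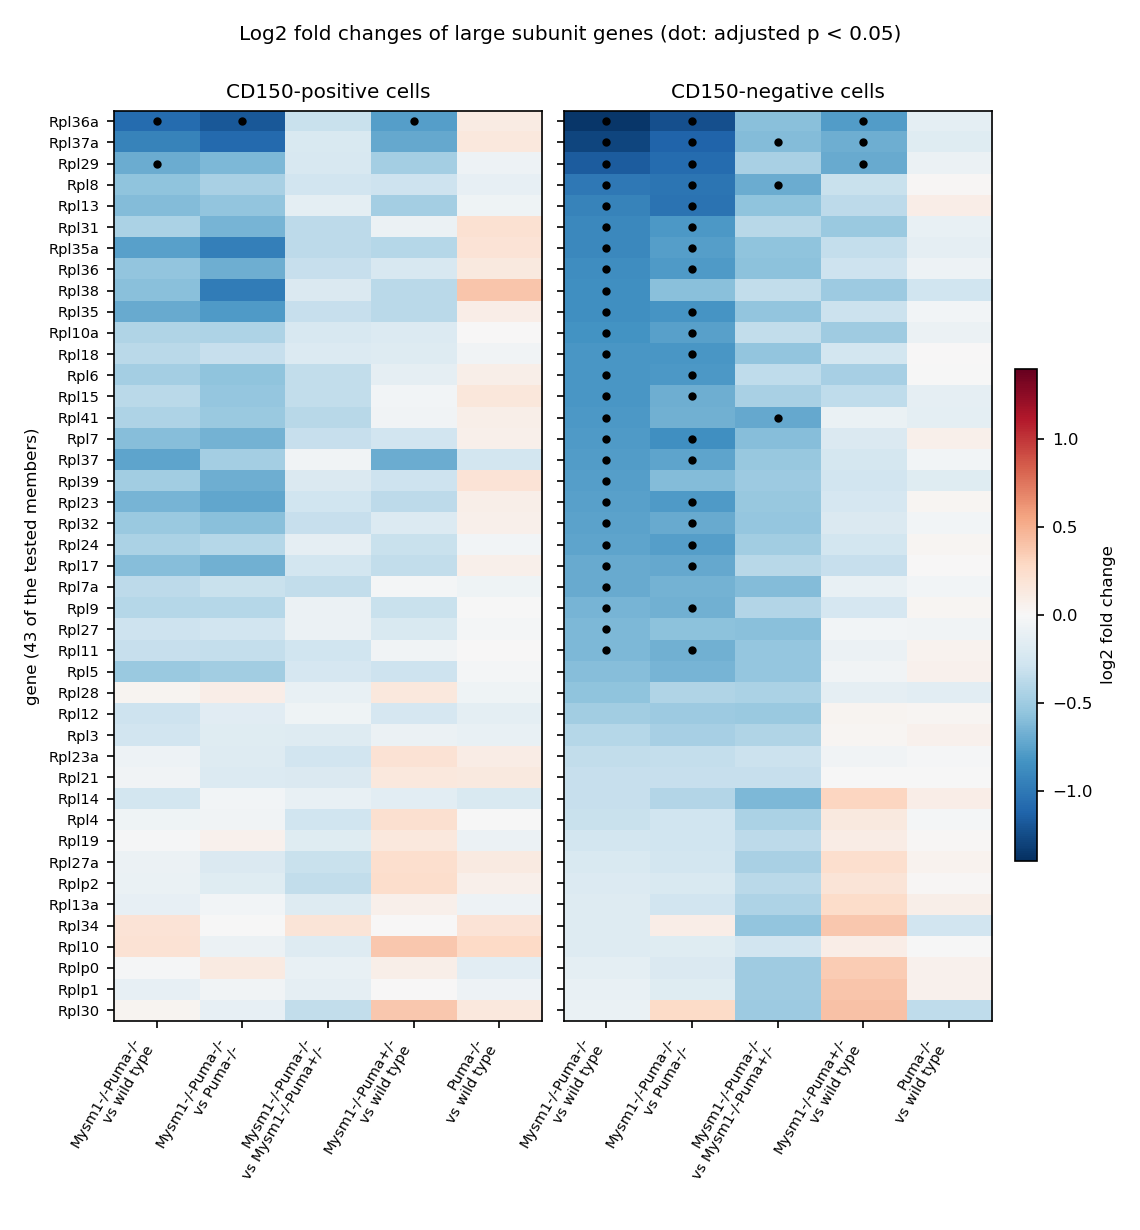
Log2 fold changes of 43 of the 44 tested members (down the page) in 5 genotype comparisons of each population (across), with black dots where edgeR's adjusted p was under 0.05. The dots gather in CD150-negative Mysm1-/-Puma-/- cells, 26 against wild type and 21 against Puma-/-, and the 5 CD150-positive columns hold 4 dots.

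CD150-positive cells, the fraction richer in long-term stem cells, showed fewer calls. In Mysm1-/-Puma-/- against wild type 2 members fell and 0 rose, beside 0.043% of all genes called lower. The median log2 fold change was -0.39, against -0.05 over all genes, and 39 of 44 values were negative. In 11 members every Mysm1-/-Puma-/- library lay below every wild-type library, as in 0.869% of all genes.

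Rpl36a ranged from 231 to 321 CPM (median 281) over the 7 Mysm1-/-Puma-/- libraries. It had 364, 316, 334 and 276 CPM in Mysm1-/-Puma+/- libraries, 680.2 and 608 CPM in Puma-/- and 543, 571, 728 and 480 CPM in wild type. Both Mysm1-deficient groups lay below all other CD150-positive libraries. The log2 fold change of Mysm1-/-Puma-/- against wild type was -1.08 (SE 0.15, adjusted p = 0.000488, edgeR).

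Rpl29 ranged from 343 to 409 CPM (median 379) in Mysm1-/-Puma-/- libraries. In Mysm1-/-Puma+/- it had 473, 459.6, 417 and 352 CPM, in Puma-/- 599 and 626 CPM and in wild type 582, 608, 673 and 627 CPM. It too separated the Mysm1-deficient groups from the others, with a log2 fold change of -0.70 for Mysm1-/-Puma-/- against wild type (SE 0.13, adjusted p = 0.0104, edgeR).

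Rpl37a, called in the CD150-negative cells, ranged from 98.2 to 296 CPM (median 180.5) in CD150-positive Mysm1-/-Puma-/- libraries against 353, 324, 447 and 218 CPM in wild type. The groups overlapped, and its log2 fold change of -0.94 was not called. The P and W libraries form a second naming series in the labels, of which nothing more is said. Libraries P1 to P3 and W1 were the lowest of their groups in Rpl37a and in Rpl38, Rpl39, Rpl41, Rpl15 and Rpl31. The same held for Rpl36a, with 239, 236 and 231 CPM in P1 to P3 and 480 CPM in W1. It also held for other members, Rpl10, Rpl32 and Rpl35 among them, but not for Rpl29. Without the P and W libraries Rpl36a kept its call (-1.03, adjusted p = 0.0149), and Rpl29 lost it (adjusted p = 0.281). The count over members was then 1. It was 1 without wild-type library D3-4, where Rpl29 had an adjusted p of 0.0713, 4 without W1 and 6 without B5, and DESeq2 called 15. Shares of all genes called under these settings are not given.

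The erythroid markers summed to 48.0 to 397 CPM in CD150-positive Mysm1-/-Puma-/- libraries against 178 to 341 CPM in wild type, and the groups overlapped. Rpl5, Rpl11 and the stalk genes were not called by edgeR in CD150-positive cells without a covariate, and Rpl5, at -0.52 (adjusted p = 0.508), had an adjusted p of 0.0237 by DESeq2 and of 0.0295 with the receptor covariate. Rplp0 ranged from 1456 to 2017 CPM (median 1871) in Mysm1-/-Puma-/- libraries, against 1763, 1606, 1938 and 1887 CPM in wild type. Of the 8 tested Diamond-Blackfan genes 0 were called, with 7 lower at an unadjusted p under 0.05 and a median of -0.41. That median is close to the one over all members given above. Shares of all members and of all genes at the unadjusted threshold are not given.

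Mysm1-/-Puma+/- against wild type gave 1 member in CD150-positive cells, beside 0.0812% of all genes called lower. It was Rpl36a at -0.77 (SE 0.17, adjusted p = 0.0496, edgeR), at the edge of the threshold, and leaving out any of A1 to A4, D1, D2 or D3-4 gave 0. The members' median was -0.16, against -0.05 over all genes. Mysm1-/-Puma-/- against Puma-/- gave 1, again Rpl36a, at -1.19 (SE 0.18, adjusted p = 0.00475), beside 0.0239% of all genes, with a median of -0.40 against -0.09. That count was 0 without C1-4 or C2-5, 3 without B5 and 0 without the P and W libraries, where the median was -0.25.

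Mysm1-/-Puma-/- against Mysm1-/-Puma+/- gave 0 members and 0% of all genes in CD150-positive cells by edgeR, with 2 members lower at an unadjusted p under 0.05 and 0 by DESeq2. Of the 44 members 43 had a negative value, with a median of -0.23. Puma-/- against wild type gave 0 members and 0% of all genes, 0 at an unadjusted p under 0.05 and 0 by DESeq2. Its median was 0.04, and -0.11 without library C1-4. With 2 Puma-/- libraries, small differences could not be seen in that comparison.

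Across the 42 well-counted members fold changes were set side by side between the 2 populations, which share no library although library names recur in both. For Mysm1-/-Puma-/- against wild type Pearson's r was 0.89 and Spearman's rho 0.84, for Mysm1-/-Puma-/- against Puma-/- they were 0.81 and 0.79, and for Mysm1-/-Puma+/- against wild type both were 0.71. For Mysm1-/-Puma-/- against Mysm1-/-Puma+/- they were 0.19 and 0.20, and for Puma-/- against wild type -0.60 and -0.56. These values run across genes, which are not independent replicates and share base composition, copies and library preparation, so no p is given. Among features not used to choose the genes, the fold change of Mysm1-/-Puma-/- against wild type in CD150-negative cells went with the level per kilobase at r = 0.46 (rho = 0.45, 42 members) and with coding length at r = 0.31 (rho = 0.31, 41 members). With the within-group SD r was -0.32 (rho = -0.31, 42 members). With coding GC content r was 0.07, with the share of copied stretches -0.18 and with the number of near-full copies 0.00. In CD150-positive cells the same comparison gave r = 0.23 (rho = 0.13) with the level and r = 0.31 (rho = 0.36) with coding length. With the within-group SD it gave r = -0.27 (rho = -0.23).

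**Figure D5:**
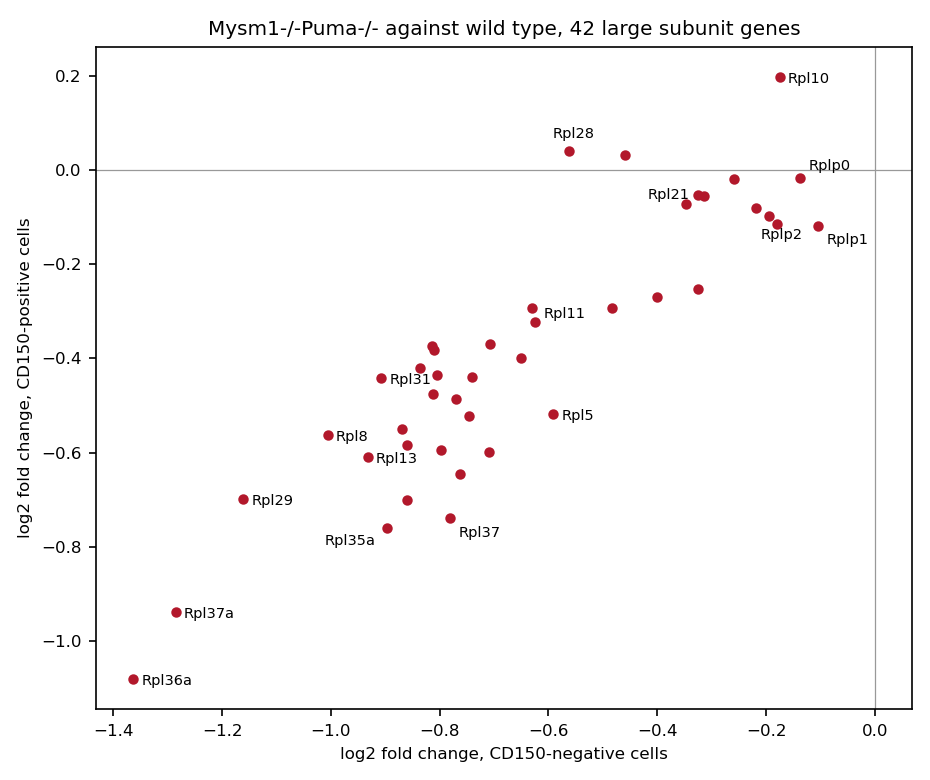
Each point is 1 of the 42 well-counted members: log2 fold change of Mysm1-/-Puma-/- against wild type in CD150-negative cells (x axis) and in CD150-positive cells (y axis). Rpl36a lies at -1.36 and -1.08 and Rplp0 close to 0, with a Pearson r of 0.89 across genes.

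Whether the genotype differences themselves differed between populations was tested in a fit over all 29 libraries. For Mysm1-/-Puma-/- against wild type 0 members were called by edgeR, beside 0.00458% of all genes, with 3 members at an unadjusted p under 0.05 and 0 by DESeq2. The median difference, CD150-positive minus CD150-negative, was 0.21, against -0.10 over all genes. Among the smallest p-values were those of Rpl29 at 0.39 and Rpl28 at 0.54 (adjusted p = 0.944 each). For Mysm1-/-Puma+/- against wild type 0 members were called, beside 0.00916% of all genes, with 1 at an unadjusted p under 0.05, 0 by DESeq2 and a median of -0.04. The larger number of calls in CD150-negative cells is therefore not shown to be a larger effect there. The populations also differ in depth and in number of libraries.

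Between populations of 1 genotype few members changed. In wild type 0 were called, CD150-positive against CD150-negative, beside 7.15% of all genes called in either direction, with 1 at an unadjusted p under 0.05 and 1 by DESeq2. The nearest was Rpl21 at 0.44 (adjusted p = 0.0591). Rpl21 (chr5:147644466-147648608, plus strand) was the member that rose in each of the other genotypes. Its log2 fold changes were 0.63 in Mysm1-/-Puma-/- (SE 0.13, adjusted p = 0.00106), 0.54 in Mysm1-/-Puma+/- (SE 0.14, adjusted p = 0.0179) and 0.60 in Puma-/- (SE 0.17, adjusted p = 0.0284), by edgeR. It had 1610.3 to 2323 CPM (median 1996) in CD150-positive Mysm1-/-Puma-/- libraries against 1171, 1272 and 1371 CPM in the CD150-negative ones, without overlap. All of its coding stretches have copies elsewhere, and at 55 it has the most near-full copies of any member, so the source of its reads is uncertain.

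In Mysm1-/-Puma-/- cells 4 members rose in CD150-positive cells, beside 5.16% of all genes: Rpl21, Rpl29 at 0.43 (SE 0.12, adjusted p = 0.0131), Rpl31 at 0.66 (SE 0.18, adjusted p = 0.0139) and Rpl8 at 0.44 (SE 0.14, adjusted p = 0.0319). The count was 1 without CD150-negative library B1, 2 without B3 and 12 without the P and W libraries. In Mysm1-/-Puma+/- cells 2 members rose, Rpl21 and Rpl31 at 0.66 (SE 0.20, adjusted p = 0.0419), beside 2.67% of all genes, and 1 fell, Rpl37 at -0.61 (SE 0.18, adjusted p = 0.0332), beside 3.24%. Leaving out any 1 of the 7 libraries of that comparison brought the count to 0 or 1. In Puma-/- cells Rpl21 alone rose, beside 2.29% of all genes, and that call was lost without any 1 of the 5 libraries and without the P and W libraries of the other genotypes (adjusted p = 0.133). Of 44 members, the counts of the main fits lie near what the shares of all genes called would give. Shares under the other settings are not given.

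Of the expressed relatives outside the rule, Rpl22l1, the paralogue of Rpl22, fell in each comparison made of a Mysm1-deficient group with wild type or Puma-/-. In CD150-negative cells its log2 fold change was -1.48 in Mysm1-/-Puma-/- against wild type (adjusted p = 0.000379), -1.45 in Mysm1-/-Puma+/- against wild type (adjusted p = 0.000383) and -1.04 in Mysm1-/-Puma-/- against Puma-/- (adjusted p = 0.00619). In CD150-positive cells the same comparisons gave -1.08 (adjusted p = 0.00708), -1.08 (adjusted p = 0.0274) and -1.29 (adjusted p = 0.0221), all by edgeR. Rpl36al, shown beside Rpl36a above, was not called in any comparison and had -0.29 in CD150-negative Mysm1-/-Puma-/- against wild type (adjusted p = 0.557). Rpl7l1 fell by 0.58 in CD150-positive Mysm1-/-Puma-/- against wild type (adjusted p = 0.0421).

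Promoters are shown for 3 members among those that fell and for 2 stalk genes that were not called, to set the starts of genes with unlike values side by side. Each runs from 80 bases before to 10 bases after the start of transcription, from RefSeq on build GRCm38.p6, in the direction of the gene. Capitals mark matches to the motifs searched. The TATAAA match of Rpl36a lies within the last 10 bases, after the annotated start.
Rpl36a: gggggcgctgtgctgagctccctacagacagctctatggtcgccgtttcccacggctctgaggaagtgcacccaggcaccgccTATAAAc
Rpl37a: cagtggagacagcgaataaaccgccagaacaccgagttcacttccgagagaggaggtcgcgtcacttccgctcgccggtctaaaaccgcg
Rpl38: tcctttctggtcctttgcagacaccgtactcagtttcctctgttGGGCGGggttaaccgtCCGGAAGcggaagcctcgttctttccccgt
Rplp0: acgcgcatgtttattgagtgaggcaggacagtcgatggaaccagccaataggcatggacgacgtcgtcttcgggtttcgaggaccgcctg
Rplp2: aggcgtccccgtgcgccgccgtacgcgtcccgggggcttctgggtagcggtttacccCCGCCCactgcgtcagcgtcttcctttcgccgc
Rpl36a is at chrX:134585574-134585663, Rpl37a at chr1:72711180-72711269, Rpl38 at chr11:114668500-114668589, Rplp0 at chr5:115559387-115559476 and Rplp2 at chr7:141447571-141447660 in that build, and the Rplp2 match is on the reverse strand.

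Over windows of 300 bases, from 250 before to 50 after the start and on both strands, 33 of the 45 members had a promoter in the table. A gene was counted if any of its promoters matched. CCGGAAG, a core bound by ETS-family factors, was in 14 of the members (42.4%), against 9.93% of 27025 genes. GGGCGG, the GC box, was in 23 (69.7%), against 38.2%. CACGTG, the E-box bound by Myc, was in 5 (15.2%), against 8.09%. AAGATGG, the core bound by YY1, was in 3 (9.09%), against 7.28%, and TATAAA was in 3 (9.09%), against 15.7%. Matches to different motifs may overlap, and a match is a description of the sequence and no proof of a bound site.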

How the data were processed

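The authors deposited 1 table of whole-number read counts for 23366 genes in 29 libraries, named by gene symbol. After ribosomal RNA was depleted, libraries were prepared with a stranded kit for small amounts of RNA and sequenced from both ends for 50 bases each, per the labels' protocols. A deposited table of CPM was not used. FastQC, Trimmomatic 0.33, TopHat2 2.0.9, Bowtie 1.0.0, featureCounts, edgeR in R 3.4.2 and build mm9 are named, per the submitters' processing notes. The annotation, the strand setting and how reads with several matches were handled are not given in the sources used here.

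Counts were tested as deposited with edgeR 4.0.16 (R 4.3.3): filterByExpr, TMM scaling, quasi-likelihood fits and Benjamini-Hochberg adjustment over all genes tested, calling adjusted p under 0.05. CD150-negative libraries (21168 genes), CD150-positive libraries (20944 genes) and all 29 libraries (21830 genes, for comparisons between populations) were fitted apart, with no covariate. Fold changes are on the log2 scale, and each SE was approximated from the fold change and its F statistic. Levels are TMM-scaled CPM from the fit of all libraries. No libraries of a group matched within sampling noise (chi-square per degree of freedom of at least 20.7).

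Copies were found with BLAST 2.17.0 and exact matching on NCBIM37 and its GENCODE annotation, with samtools 1.23.1. Promoters are from RefSeq on GRCm38.p6. Figures were drawn with matplotlib 3.10.9.

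The members and lists were chosen with earlier results of these data known. In each comparison the called members were named, at most 10 by smallest p, or the 3 with the smallest p where none was called, besides Rpl5, Rpl11, Rplp0, Rplp1, Rplp2, Rpl10, Rpl36a and Rpl39. Rpl13a, Rpl12 and members named for their spread, counts or copies were chosen after their values were seen. Alternatives were RLE scaling, TMM without ribosomal protein genes, DESeq2 1.42.0, no filter, pseudogene counts added, each library left out, no P and W libraries, receptor level as covariate and a replicate block. The test of whether Mysm1-/-Puma-/- against wild type differed between populations was added after seeing the data. Values of 1 member are not reported here by name. The scripts were tested on simulated data.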

Additional observations from a re-analysis of the deposited data

Results flagged for a closer look

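In groups of 4 to 7 libraries, 90 sets of levels were searched for a library that stands far from the rest by Dixon's test, which flags about 1 group in 20 by chance, and 9 stood out. In CD150-positive Mysm1-/-Puma-/- cells, library B5 was highest in 4 members of which 3 encode short proteins. It had 231.5 CPM of Rpl38 (the next library 125), 332.6 CPM of Rpl39 (the next 166), 656.8 CPM of Rpl41 (the next 411) and 457.5 CPM of Rpl28 (the next 315). B5 also had the lowest depth of its group, 13948532 counts, and the highest summed receptor level, 7491 CPM against 622 to 4627 CPM in the others. The part of depth and receptor level in these values was not tested. Library P1 of that group had 838 CPM of Rpl37, with the next at 619.

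In CD150-positive wild-type cells, library W1 was lowest in Rpl18 at 315 CPM (the next 414) and in Rpl36 at 425 CPM (the next 569). Library D3-4 was highest in Rpl23 at 2001 CPM (the next 1696), and D2 was lowest in Rpl5 at 3486 CPM (the next 3856). None of these genes was called in CD150-positive Mysm1-/-Puma-/- against wild type. Counts without B5, W1 or D3-4 stand with that comparison.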

How the results depend on the processing

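No value of a named member that passed the test changed sign under any alternative run, while some values near 0 that did not pass did. Of 174 values of named members, 41 were calls. Of these, 11 held under every alternative and with each library left out: Rpl29, Rpl31, Rpl35a, Rpl36a, Rpl37a and Rpl38 in CD150-negative Mysm1-/-Puma-/- against wild type and Rpl13, Rpl29, Rpl31, Rpl36a and Rpl37a against Puma-/-. The scaling alternatives moved the median of all genes by under 0.1.

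Counts of members called that moved by more than 1.5 times were as follows. Shares of all genes called are given above for the main fits only. The counts below stand without the number of all genes called under the same setting, which may also have been larger. With DESeq2 there were 7 (main result 3) in CD150-negative Mysm1-/-Puma+/- against wild type, 32 (3) in Mysm1-/-Puma-/- against Mysm1-/-Puma+/-, and in CD150-positive cells 15 (2) in Mysm1-/-Puma-/- and 5 (1) in Mysm1-/-Puma+/- against wild type, 10 (1) in Mysm1-/-Puma-/- against Puma-/- and 1 (0) between populations of wild type. With the receptor covariate there were, for the same comparisons within populations and in that order, 6, 1, 10, 2 and 2. RLE scaling gave 6 in CD150-positive Mysm1-/-Puma-/- against wild type. TMM without ribosomal protein genes gave 0 in CD150-positive Mysm1-/-Puma+/- against wild type and between populations of Puma-/-, and no filter gave 0 in both and between populations of Mysm1-/-Puma+/-. Without the P and W libraries CD150-positive Mysm1-/-Puma-/- gave 1 against wild type and 0 against Puma-/- (median -0.245, main -0.399), and 12 between populations (main 4). The cause was not tested.

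With each library left out, counts ran from 0 to 3 in CD150-negative Mysm1-/-Puma+/- and 15 to 28 in Mysm1-/-Puma-/- against wild type (median -0.790 to -0.535), 0 to 20 in Mysm1-/-Puma-/- against Mysm1-/-Puma+/- and 13 to 26 against Puma-/-. In CD150-positive cells they ran from 0 to 1 in Mysm1-/-Puma+/- and 1 to 6 in Mysm1-/-Puma-/- against wild type and 0 to 3 against Puma-/-, and the median of Puma-/- against wild type from -0.113 to 0.138. Between populations they ran from 0 to 1 in wild type, 0 to 1 in Mysm1-/-Puma+/-, 1 to 6 in Mysm1-/-Puma-/- (median 0.194 to 0.428) and 0 to 0 in Puma-/-. The median difference between populations for Mysm1-/-Puma-/- against wild type ran from 0.128 to 0.422. Where 1 library remained in a group it was assumed to vary like the others.

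Whether library names and numbers pair the libraries was not settled. Between libraries of 1 name in both populations, deviations from group means correlated at 0.53 for A3, 0.48 for A2, 0.29 for B3 and 0.12 for B1. They correlated at 0.01 for A1, -0.06 for D2 and -0.14 for B5. For libraries of 1 number they correlated from -0.41 to 0.35 within CD150-negative and from -0.04 to 0.42 within CD150-positive cells. Of 7 CD150-positive libraries, 3 correlated best with their own name. The labels do not say whether libraries of 1 name share an animal. With the number as a replicate block, counts were 0, 6, 0 and 5 in CD150-negative Mysm1-/-Puma+/- against wild type, Mysm1-/-Puma-/- against wild type, against Mysm1-/-Puma+/- and against Puma-/-, and 0 in both comparisons of CD150-positive Mysm1-deficient cells with wild type (median of Mysm1-/-Puma-/- -0.236). Between populations the block by name gave 1 in Mysm1-/-Puma+/- and 11 in Mysm1-/-Puma-/- (median 0.460), and a median difference of 0.366 for Mysm1-/-Puma-/- against wild type. No block could be fitted for CD150-positive Puma-/- or between populations of Puma-/-. Few counts limit what Rpl26, Rpl30 and Rpl34 can show.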
